A study of Mus musculus with 12 samples.

Results

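The ERK feedback and output genes, 10 genes at the far end of the FGF and ERK pathway, were followed in mouse embryonic stem cells with less Tet1 or less Tet2. They are a list of named genes, with no measured value in the rule: the Sprouty genes Spry1, Spry2 and Spry4, the Spred genes Spred1 and Spred2, the phosphatase genes Dusp4 and Dusp6, and the transcription factor genes Etv4, Etv5 and Fosl1. The list was chosen with earlier results of these data known, so its counts and medians beside those of all genes are no independent test. All 10 had a row in both gene tables, which hold 36521 genes each. The cells were V6.5 mouse embryonic stem cells, grown in 15% serum with LIF at 1000 U/ml. The Tet1kd and Tet2kd groups were picked clones of these cells that stably expressed a short hairpin RNA against Tet1 or Tet2 from a pSUPER-puro vector, after puromycin selection on SNL76/7-4 feeder cells. The parental group carried no hairpin. Each group held 4 libraries of poly(A)-selected RNA. The sources used here do not say how many clones stood behind the 4 libraries of a knockdown. No group carried a control hairpin, so the knockdown and the vector, selection and clone picking that came with it cannot be told apart. Tet1 kept 25.2% of its parental mean in Tet1kd cells and Tet2 kept 50.9% in Tet2kd cells, in the authors' deposited tables.

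In this pathway an FGF bound to its receptor activates RAS through the adaptors FRS2 and GRB2 and the exchange factor SOS, and RAS activates the kinases RAF, MEK and ERK in turn. ERK then raises transcription of ETS and AP-1 factors and of its own inhibitors, so that RNA of these inhibitors is often used as a readout of ERK activity. In mouse embryonic stem cells FGF4 is a main source of this signal, and ERK activity favours the exit from naive pluripotency. Sprouty and Spred proteins act on the receptor, RAS and RAF, and the DUSP phosphatases remove phosphate from ERK and related kinases.

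Reads assigned to genes came to 15.8 to 39.7 M per Tet1kd library and 14.4 to 31.1 M per Tet2kd library, both as estimates, and to 14.6 to 31.6 M per parental library. Values per library are normalized read counts, recovered from the deposited group means and divided by size factors computed over all 12 libraries. The libraries are lettered a to d, since their place among the numbered samples is not known. Values follow in that order, a and b being the deep and c and d the shallow libraries of a group. Standard deviations (SD) are over these 4 libraries, fold changes and adjusted p-values come from the authors' deposited tables unless limma is named, and a gene passed the test at an adjusted p under 0.05. All 8 embryonic stem cell markers were present in all groups, and in Tet1kd cells 4 of them rose and none fell. These were Klf4 (log2 fold change 1.20), Utf1 (0.74), Nanog (0.33) and Sox2 (0.29), while in Tet2kd cells Sox2 (0.28) was the only one to pass, per the authors' deposited tables. The part of these markers in the values of the 10 genes was not tested. Pou5f1, which passed in neither knockdown, had a deposited mean of 15262 in Tet1kd and 14167 in parental cells of the same table, and 11819 in Tet2kd against 13009 in parental cells.

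In Tet1kd cells 9 of the 10 genes fell and Spry1 rose. Of all 23120 genes tested for Tet1kd, 30.4% passed, 15.3% as lower and 15.2% as higher. Among the 10996 better covered genes, whose mean reached 100, 49.6% passed, 24.2% as lower and 25.5% as higher. All 10 genes also passed by limma, which passed 54.8% of all genes, and by the second deposited test, which passed 39.2%. The median log2 fold change was -0.60 over the 10 genes and -0.02 over all genes tested. In no gene of the 10 did the recovered Tet1kd libraries overlap the parental ones. The same held for 48.8% of the 14527 genes with recovered values and a mean of at least 10. For Spry2, Spry4 and Etv5 the narrower limit used in recovering the counts alone excluded overlap, so their separation is not an observed result. For Spred1 that limit also decided the Tet1kd values and leans them away from overlap.

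In Tet2kd cells 4 of the 10 passed the test. Spry4 and Etv4 fell, and Spry1 and Dusp6 rose. Of all 22949 genes tested for Tet2kd, 7.14% passed, 3.29% as lower and 3.85% as higher, and among the 10808 better covered genes 12.7% passed, 5.91% as lower and 6.84% as higher. By limma 5 of the 10 passed, against 19.7% of all genes, and by the second deposited test 7, against 18.2%. The median log2 fold change was -0.12 over the 10 genes and 0.00 over all genes tested. Tet2kd and parental libraries did not overlap in 4 of the 10 genes. This was so for 23.2% of the 14527 genes with recovered values and a mean of at least 10. Among the 4 was Spry4, for which the narrower limit of the recovery alone excluded overlap. Both knockdowns were compared with the same parental libraries, so the 2 sets of values are given side by side and are not independent.

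**Figure D1:**
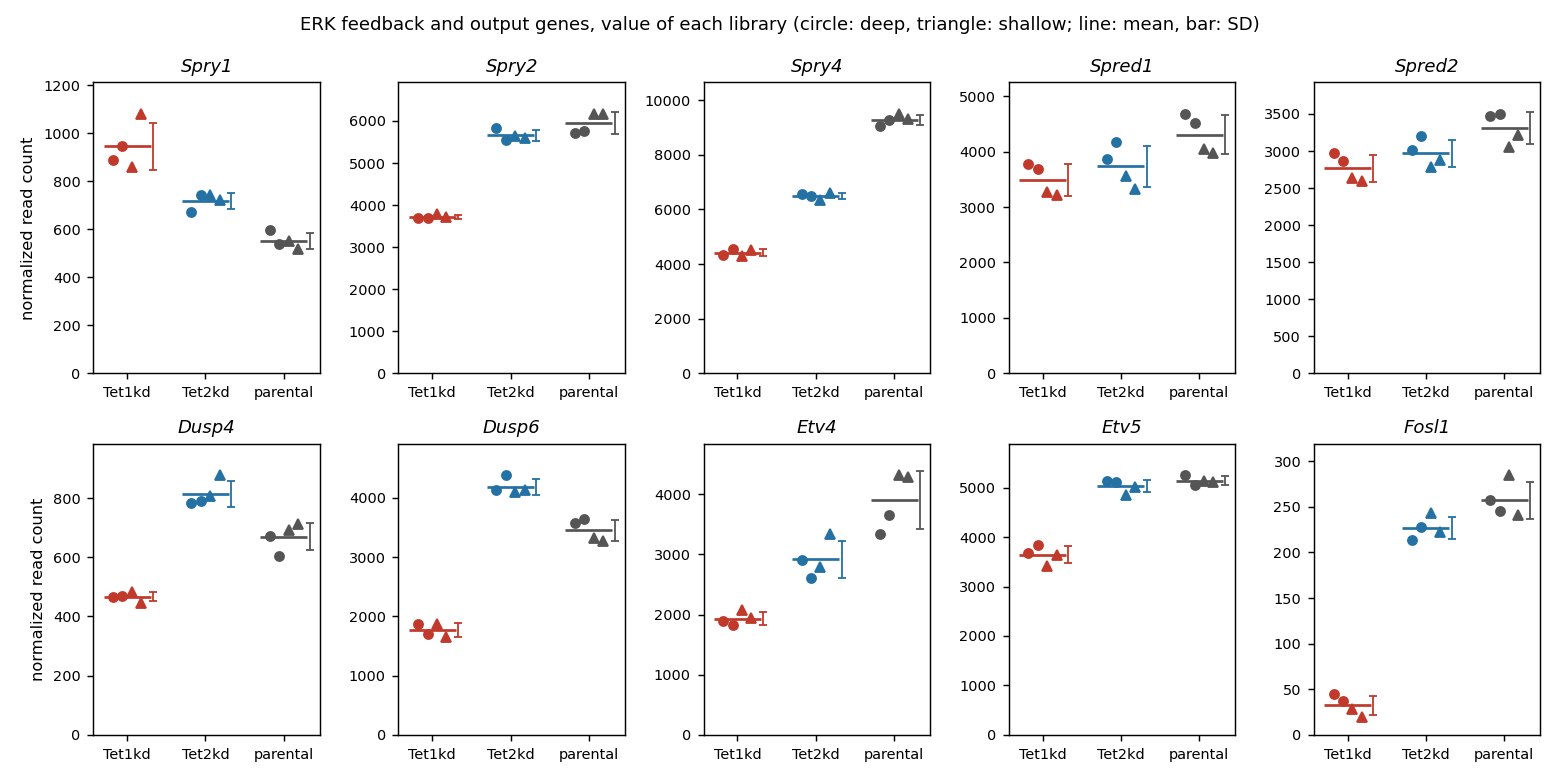
Normalized read count of each library (y axis, from 0, separate for each gene) for Tet1kd, Tet2kd and parental cells; circles are deep and triangles shallow libraries, lines are means and bars are SDs over 4 libraries. The Tet1kd libraries lie below the parental libraries for 9 genes and above them for Spry1, and Dusp6 in Tet2kd cells lies above both other groups.

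The Sprouty genes, which encode inhibitors of signalling from receptor tyrosine kinases to RAS and ERK, did not move as 1 family. Spry4 (ENSMUSG00000024427, chromosome 18) had the highest read count of the 10 in parental cells. It had 4318, 4540, 4285 and 4531 normalized counts in the Tet1kd libraries and 6583, 6475, 6352 and 6589 in the Tet2kd libraries, against 9050, 9271, 9510 and 9299 in the parental libraries. The 3 groups were separate as recovered, with Tet1kd lowest and Tet2kd between. The narrower limit of the recovery alone excluded overlap of either knockdown with the parental libraries. Its log2 fold change was -1.07 in Tet1kd cells (adjusted p = 5.47e-35) and -0.52 in Tet2kd cells (adjusted p = 2.49e-08) in the authors' deposited tables. By limma the standard error of each was 0.0363.

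Spry2 (ENSMUSG00000022114, chromosome 14) had 3687, 3688, 3778 and 3714 normalized counts in the Tet1kd libraries and 5828, 5544, 5649 and 5606 in the Tet2kd libraries, against 5718, 5754, 6176 and 6169 in the parental libraries. All Tet1kd libraries were low, and the Tet2kd libraries overlapped the parental ones. On the log2 scale Spry2 changed by -0.68 in Tet1kd cells (adjusted p = 8.85e-14) and -0.08 in Tet2kd cells (adjusted p = 0.894) in the authors' deposited tables. With the library batch (deep or shallow) as a term, limma gave -0.07 in Tet2kd cells (adjusted p = 0.0453). The narrower limit of the recovery decided the Spry2 values of both knockdowns, which leans this p-value towards small values.

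Spry1 (ENSMUSG00000037211, chromosome 3) went the other way. It had 889, 947, 859 and 1082 normalized counts in the Tet1kd libraries and 671, 741, 742 and 722 in the Tet2kd libraries, against 596, 540, 550 and 516 in the parental libraries. The groups did not overlap, and parental was the lowest. Its log2 fold change was 0.78 in Tet1kd cells (adjusted p = 5.01e-11) and 0.38 in Tet2kd cells (adjusted p = 0.0154) in the authors' deposited tables. In a later annotation (GENCODE M21) an exon of Gm42922 overlaps Spry1 on the other strand, and the sources used here do not say whether reads were counted by strand, so their reads cannot be told apart.

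The Spred genes encode relatives of Sprouty that bind neurofibromin and hold RAS and RAF in check, and they had the smallest fold changes of the 10 in Tet1kd cells. Spred1 (ENSMUSG00000027351, chromosome 2) had 3775, 3680, 3263 and 3211 normalized counts in the Tet1kd libraries and 3873, 4176, 3556 and 3323 in the Tet2kd libraries, against 4685, 4510, 4046 and 3981 in the parental libraries. Spred2 (ENSMUSG00000045671, chromosome 11) had 2973, 2871, 2631 and 2598 in the Tet1kd libraries and 3013, 3200, 2782 and 2882 in the Tet2kd libraries, against 3472, 3506, 3050 and 3217 in the parental libraries. For both genes every Tet1kd library was below every parental one, while Tet2kd and parental libraries overlapped. In Tet1kd cells the log2 fold change was -0.31 for Spred1 (adjusted p = 0.00267) and -0.26 for Spred2 (adjusted p = 0.0118) in the authors' deposited tables. In Tet2kd cells the values were -0.21 for Spred1 (adjusted p = 0.189) and -0.16 for Spred2 (adjusted p = 0.261) in the authors' deposited table, which did not pass. A limma fit with the library batch as a term did pass both in Tet2kd cells, at adjusted p = 1.68e-05 for Spred1 and 0.000505 for Spred2. The authors' second deposited test passed both as well.

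The phosphatase genes were below parental in Tet1kd cells and above it in Tet2kd cells. Dusp6 (ENSMUSG00000019960, chromosome 10) encodes a cytoplasmic phosphatase specific for ERK. It had 1867, 1697, 1870 and 1647 normalized counts in the Tet1kd libraries and 4128, 4386, 4099 and 4128 in the Tet2kd libraries, against 3567, 3643, 3323 and 3271 in the parental libraries. Parental cells lay between the knockdowns with no overlap on either side as recovered. The wider limit of the recovery alone excluded overlap of the Tet1kd with the parental libraries. Dusp6 changed by -0.96 on the log2 scale in Tet1kd cells (adjusted p = 1.23e-26) and 0.28 in Tet2kd cells (adjusted p = 0.0255) in the authors' deposited tables, which is 51.3% of the parental mean in Tet1kd and 121% in Tet2kd cells.

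Dusp4 (ENSMUSG00000031530, chromosome 8) encodes a nuclear phosphatase of ERK and other MAP kinases. It had 467, 470, 484 and 447 normalized counts in the Tet1kd libraries and 783, 789, 807 and 878 in the Tet2kd libraries, against 672, 604, 692 and 713 in the parental libraries. The order of the groups was that of Dusp6, again without overlap. Dusp4 fell in Tet1kd cells, where the authors' deposited table gives it a log2 fold change of -0.52 (adjusted p = 3.71e-05). In Tet2kd cells its log2 fold change was 0.28 and did not pass the deposited test (adjusted p = 0.0652), while limma gave 0.28 with a standard error of 0.069 (adjusted p = 0.00996).

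Etv4 and Etv5 encode ETS transcription factors of the PEA3 group, which are induced by FGF signalling. Etv4 (ENSMUSG00000017724, chromosome 11) had 1895, 1829, 2073 and 1935 normalized counts in the Tet1kd libraries and 2909, 2614, 2797 and 3343 in the Tet2kd libraries, against 3341, 3659, 4320 and 4289 in the parental libraries. The Tet1kd libraries were lowest throughout, and the highest Tet2kd library just reached the lowest parental one. The wider limit of the recovery alone excluded overlap of the Tet1kd with the parental libraries. The log2 fold change was -1.01 in Tet1kd cells (adjusted p = 2.38e-12) and -0.42 in Tet2kd cells (adjusted p = 0.0349) in the authors' deposited tables. The parental spread of Etv4 was wide, at an SD of 482 around 3902 (n = 4), with the shallow libraries above the deep ones. Within the deep libraries the log2 difference of Tet2kd from parental means was -0.34 and within the shallow ones -0.49.

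Etv5 (ENSMUSG00000013089, chromosome 16) had 3669, 3831, 3418 and 3642 normalized counts in the Tet1kd libraries and 5137, 5124, 4861 and 5007 in the Tet2kd libraries, against 5257, 5045, 5135 and 5124 in the parental libraries. It was low in Tet1kd cells, and Tet2kd and parental libraries overlapped. Its log2 fold change was -0.50 in Tet1kd cells (adjusted p = 8.04e-08) and -0.03 in Tet2kd cells (adjusted p = 1) in the authors' deposited tables. Of the ETS pair, Etv4 thus had values past the test in both knockdowns and Etv5 in Tet1kd alone. Whether the effect of Tet2kd differed between these 2 genes was not tested.

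Fosl1 (ENSMUSG00000024912, chromosome 19), the gene of the AP-1 subunit FRA-1, had the fewest reads and the largest fold change of the 10. It had 44.6, 36.6, 28 and 19.9 normalized counts in the Tet1kd libraries and 214, 228, 243 and 222 in the Tet2kd libraries, against 258, 245, 285 and 241 in the parental libraries. These came from 84, 48, 23 and 15 reads in the Tet1kd libraries, 306, 257, 170 and 148 in the Tet2kd libraries, and 369, 325, 209 and 162 in the parental libraries. The Tet1kd libraries of Fosl1 were far below all others, at 12.6% of the parental mean in the deposited table, and the Tet2kd libraries overlapped the parental ones. The log2 fold change was -2.99 in Tet1kd cells (adjusted p = 1.78e-50) and -0.19 in Tet2kd cells (adjusted p = 0.56) in the authors' deposited tables. Its Tet1kd value was lower in the shallow libraries (log2 difference -3.45 from parental) than in the deep ones (-2.63). An exon of Ccdc85b overlaps Fosl1 on the other strand in GENCODE M21, so its reads are uncertain to that extent.

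**Figure D2:**
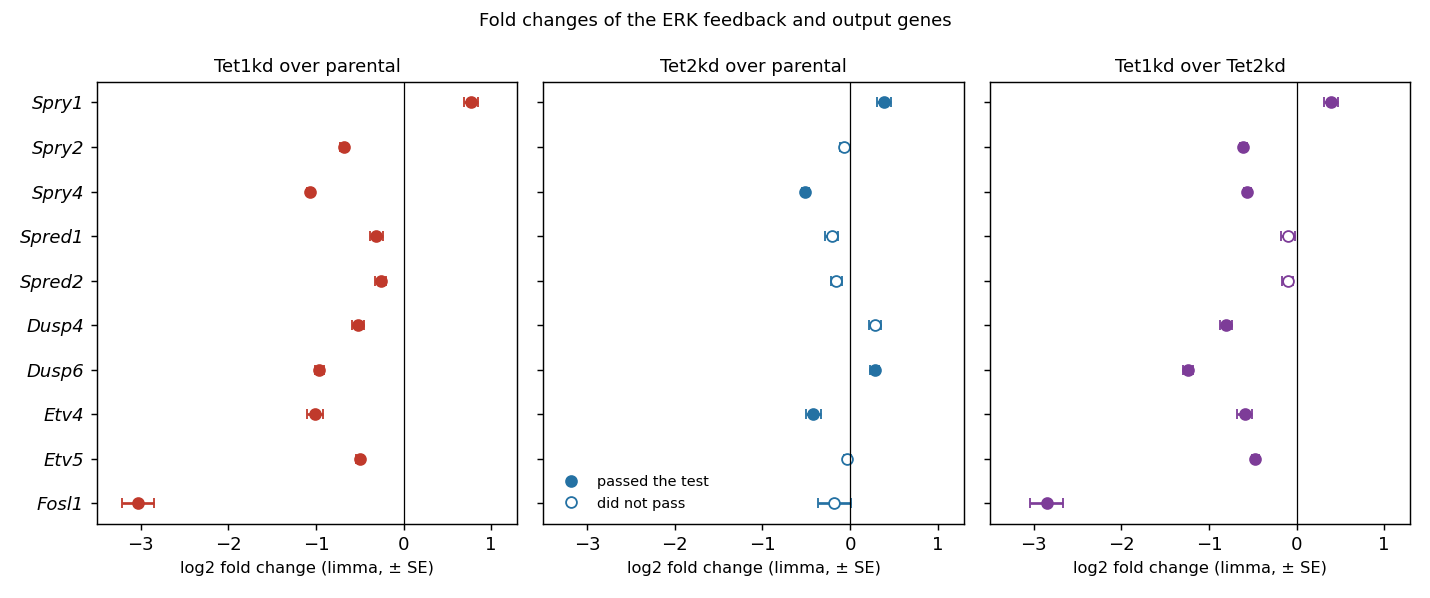
Log2 fold change by limma with its standard error (x axis) for each of the 10 genes, in Tet1kd over parental, Tet2kd over parental and Tet1kd over Tet2kd. Filled points passed the test, which is the deposited one where parental is the reference and limma between the knockdowns, and Fosl1 stands far to the left in both panels with Tet1kd on top.

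Levels were compared between genes only per kilobase of exon, with exon lengths from GENCODE M21, which is later than the annotation behind the tables. In parental cells Spry2 came first at 2853 ± 121 normalized counts per kilobase (SD, n = 4), followed by Spry4 at 1952 ± 39.6 and Etv4 at 1626 ± 201. Etv5 at 1276 ± 21.8 and Dusp6 at 1234 ± 65.0 were neighbours in this order whose means differed by less than the SD of Dusp6. Spred2 had 744, Spred1 635, Dusp4 245, Spry1 189 and Fosl1 138 normalized counts per kilobase. The gaps between all other neighbours in this order were wider than the larger SD of the pair. The only gene of the 10 that rose in Tet1kd cells, Spry1, was the next to lowest per kilobase in parental cells. Spry1 reached 325 per kilobase in Tet1kd cells, still far below Spry2 at 1781 in the same cells.

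The knockdowns were also compared with each other directly by limma, which does not use the parental values for the difference itself. In Tet1kd cells 7 of the 10 genes were lower than in Tet2kd cells and Spry1 was higher, all without overlap of libraries. Over the 14527 genes tested, 51.1% passed this test, 25.6% as lower and 25.5% as higher in Tet1kd, and 44.9% had no overlap. For Spry2, Spry4 and Etv5 the narrower limit of the recovery decided both knockdown sets and leans them away from overlap. For Dusp6 the wider limit alone kept the Tet1kd libraries below the Tet2kd ones. The median log2 difference was -0.57 over the 10 genes and 0.00 over all genes tested. After Fosl1 (-2.85, SE 0.187, adjusted p = 7.01e-09 by limma), the largest difference was that of Dusp6, at 1770 ± 115 normalized counts in Tet1kd and 4185 ± 134 in Tet2kd cells (SD, n = 4 each). Its log2 difference was -1.24 (SE 0.0548, adjusted p = 1.22e-10 by limma), so Tet1kd cells held 42.3% of the Tet2kd level. Dusp4 followed at -0.80 and Spry2 at -0.61, then Etv4 at -0.59, Spry4 at -0.56 and Etv5 at -0.47. Spry1 was higher in Tet1kd cells by 0.39 (SE 0.0778, adjusted p = 0.000637 by limma). Spred1 (-0.10, SE 0.0772, adjusted p = 0.308) and Spred2 (-0.10, SE 0.0623, adjusted p = 0.188) did not pass by limma. With the library batch as a term these became 0.00919 and 0.00857.

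Promoter sequence was taken from RefSeq (GRCm38.p6) for the 6 of the 10 genes that the table held: Spry1, Spry2, Spred1, Spred2, Dusp6 and Etv5. The 4 printed here set Spry1, which rose in Tet1kd cells, beside Spry2, Dusp6 and Etv5, which fell. Each is the stretch of 250 bases before the gene start, 5′ to 3′ on the strand of the gene, and the capitals mark CpG dinucleotides, whose methylated cytosines are what TET enzymes oxidize. The build of the deposited tables is an earlier one (mm9, NCBIM37), and no expression value was placed on these coordinates.
Spry1, chr3:37639697-37639946, + strand: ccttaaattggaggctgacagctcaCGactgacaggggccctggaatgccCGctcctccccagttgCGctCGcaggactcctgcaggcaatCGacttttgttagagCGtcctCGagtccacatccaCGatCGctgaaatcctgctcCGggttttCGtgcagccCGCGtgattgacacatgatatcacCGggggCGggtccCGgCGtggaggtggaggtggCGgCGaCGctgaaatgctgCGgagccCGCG
Spry2, chr14:105896820-105897069, - strand: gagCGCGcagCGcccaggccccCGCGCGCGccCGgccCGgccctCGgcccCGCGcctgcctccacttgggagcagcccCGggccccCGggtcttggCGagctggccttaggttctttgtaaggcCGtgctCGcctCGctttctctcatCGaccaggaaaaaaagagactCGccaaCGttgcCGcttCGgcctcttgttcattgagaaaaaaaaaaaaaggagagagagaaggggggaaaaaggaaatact
Dusp6, chr10:99262981-99263230, + strand: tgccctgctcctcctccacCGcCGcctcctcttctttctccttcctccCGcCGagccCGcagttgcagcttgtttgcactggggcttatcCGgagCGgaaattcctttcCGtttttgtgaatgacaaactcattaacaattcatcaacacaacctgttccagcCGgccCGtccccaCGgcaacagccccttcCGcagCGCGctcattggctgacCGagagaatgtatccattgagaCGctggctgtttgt
Etv5, chr16:22439571-22439820, - strand: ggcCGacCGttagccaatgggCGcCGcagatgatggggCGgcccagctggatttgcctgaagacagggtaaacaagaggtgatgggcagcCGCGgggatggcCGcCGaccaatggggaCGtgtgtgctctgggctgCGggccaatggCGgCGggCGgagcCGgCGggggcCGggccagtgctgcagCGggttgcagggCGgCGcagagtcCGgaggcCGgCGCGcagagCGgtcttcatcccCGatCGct

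The 4 sequences were all rich in CpG. Spry1 and Spry2, which moved in opposite directions in Tet1kd cells, each held 23 CpG dinucleotides and 62.4% G and C. Dusp6 held 16 CpG at 56.4% and Etv5 27 at 71.2%, while Spred2 held 12 and Spred1 31. Over all 32851 such windows in the table the median was 6 CpG and 52.4% G and C. Both strands were searched for the letters CCGGAAG of ETS factors, TGANTCA of AP-1, TGAATGAA and TGAATGGA of the repressor Capicua, and TGACGTCA of the cAMP response element. None of the 7 windows of the 6 genes held a match to these exact letters, including a second start of Etv5. Other forms of these motifs, those of Capicua among them, were not searched. The windows may therefore still hold sites of these factors. Of all windows, 6.91% held CCGGAAG, 6.75% TGANTCA, 1.08% TGAATGAA, 1.01% TGAATGGA and 1.55% TGACGTCA.

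Exon use was taken from the authors' deposited exon tables, which divide the 10 genes into 108 bins. Of these, 94 were tested in Tet1kd and 87 in Tet2kd cells. In Tet1kd cells 7 bins passed at an adjusted p under 0.05, against 2.56% of all 195843 bins tested, and 5 of the 7 belonged to Etv5. Bin 3 of Etv5 was used less (adjusted p = 1.35e-05) and bin 12 more (adjusted p = 2.61e-05) in Tet1kd than in parental cells, in the authors' deposited table. Of the 7 bins, bin 3 of Etv5 changed least. Bins 13 and 14 of Etv5 were used more along with bin 12. Bin 8 of Etv4 (adjusted p = 0.0481) and bin 4 of Spred1 (adjusted p = 0.00863) were used less in Tet1kd cells there. In Tet2kd cells 2 bins passed, against 2.45% of all 193091, and both were used less there. They were bin 6 of Etv5 (adjusted p = 0.00451) and bin 4 of Spred1 (adjusted p = 0.00865) in the authors' deposited table. Bin 6 of Etv5 was also used less in Tet1kd cells (adjusted p = 0.000496). The parental libraries are shared, so these pairs of values are not independent. The tables give no coordinates for bins, so their place in the gene is not stated here.

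The other genes of the pathway were described by 6 lists of 72 genes in all, of which 66 had a row in the tables and the others were not analysed here. In Tet1kd cells 21 of the 66 fell, 17 rose and 28 did not pass, and the median of the log2 fold changes was 0.00, per the authors' deposited table. These 38 of 66 stand beside 30.4% of all genes tested and 49.6% of the better covered ones. In Tet2kd cells 8 fell, 5 rose and 53 did not pass, with a median of 0.03. These 13 of 66 stand beside 7.14% of all genes and 12.7% of the better covered ones. The log2 fold changes that follow are also from the authors' deposited tables.

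Among receptors and adaptors, 5 of 9 fell and 2 rose in Tet1kd cells (median -0.23). The listed genes Fgfr1, Fgfr2 and Frs3 were not among these 9. The FGF receptor gene Fgfr3 (-1.16) and the adaptor gene Shc1 (-0.62) fell most there, and the RAS exchange factor genes Sos2 (1.24) and Sos1 (0.32) rose. In Tet2kd cells Fgfr3 (-1.29) and the docking protein gene Gab1 (-0.55) fell and Sos1 (0.25) rose, with a median of -0.02 over the 9. Of the 15 genes from RAS to ERK, 3 fell and 4 rose in Tet1kd cells (median 0.03). The RAF kinase gene Braf (0.66) was among those that rose and the RAS family gene Mras (-0.25) among those that fell. Only Mras passed in Tet2kd cells (-0.56), again at a median of 0.03.

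Of 11 other inhibitors of RAS and RAF, 2 fell and 1 rose in Tet1kd cells (median 0.13). Spred3 (-0.76), the third Spred gene, and Il17rd (-0.35), which encodes the FGF antagonist SEF, fell, and the neurofibromin gene Nf1 (0.48) rose. None of the 11 passed in Tet2kd cells (median 0.09), where 3 had an unadjusted p under 0.05 and the second deposited test passed 3. Of 9 other dual-specificity phosphatase genes, 4 fell and 2 rose in Tet1kd cells (median -0.29). Dusp5 (-1.12), a nuclear ERK phosphatase, and Dusp10 (-0.92), which acts mainly on JNK and p38, fell most, while the stress-induced Dusp1 (1.53) and Dusp7 (0.31), an ERK phosphatase, rose. In Tet2kd cells Dusp5 (-0.69) and Dusp14 (-0.37) fell and none rose (median 0.07).

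The widest range was among 15 nuclear targets, of which 6 fell and 5 rose in Tet1kd cells (median 0.04). The AP-1 genes Fos and Fosb had log2 fold changes of 3.46 and 3.14, while Myc (-2.61), a growth regulator, and Ets1 (-1.99), an ETS factor, fell most. Thus Fosl1 and Fos, both of AP-1, moved in opposite directions in Tet1kd cells: Fos had a deposited mean of 22809 in Tet1kd and 2072 in parental cells. In Tet2kd cells 3 of the 15 rose and 3 fell (median 0.18), led by Fos (0.81) and the zinc finger factor gene Egr1 (0.71) above and by Phlda1 (-0.53) and the AP-1 gene Fosl2 (-0.35) below. Of 7 kinases that ERK activates, 3 rose and 1 fell in Tet1kd cells (median 0.05), with Mknk1 (0.53), Rps6ka3 (0.38) and Rps6ka5 (-0.45) as the ends. Rps6ka2 (0.49) alone passed in Tet2kd cells (median 0.06).

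**Figure D3:**
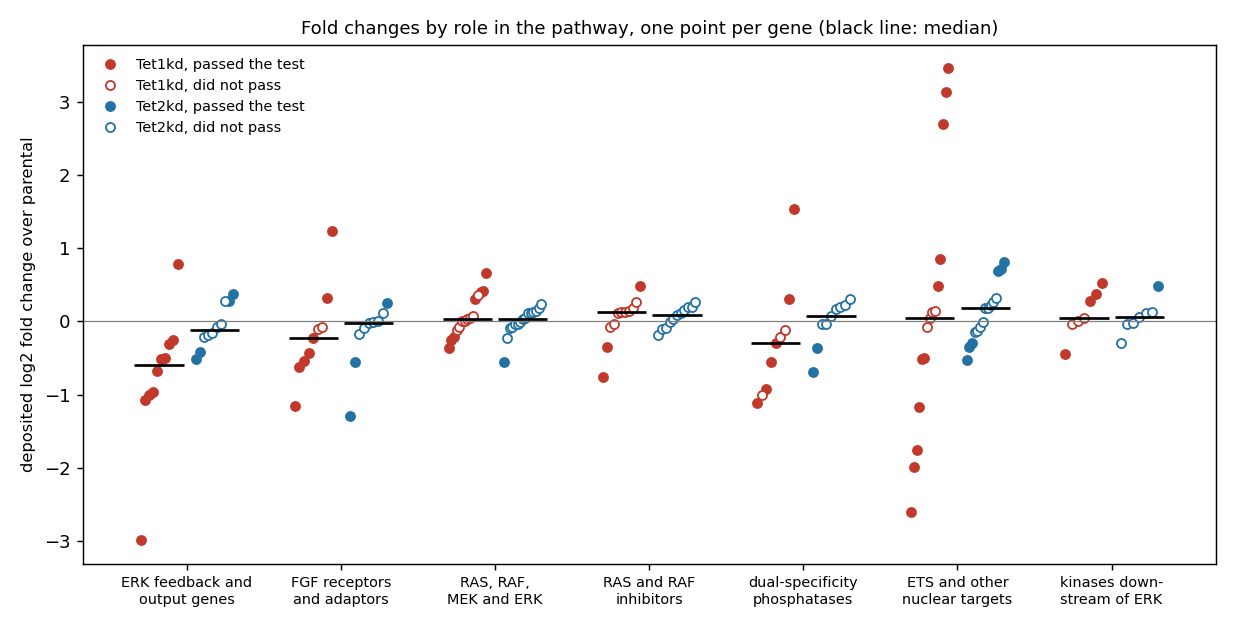
Deposited log2 fold change over parental (y axis) of each gene, by role in the pathway (x axis), for Tet1kd and Tet2kd cells; filled points passed the test and black lines are medians. The 10 feedback and output genes have the lowest median in Tet1kd cells (-0.60), and the nuclear targets spread from -2.61 to 3.46.

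Markers of feeder fibroblasts changed with the groups: 8 of 10 fell and 1 rose in Tet1kd cells, and 1 fell and 4 rose in Tet2kd cells, in the authors' deposited tables. Without Fn1, which was not recovered per library, their summed level was 2835 to 3091 normalized counts in the Tet1kd libraries and 6060 to 6484 in the Tet2kd libraries, against 4792 to 5175 in the parental libraries. No marker was at 0. The feeder markers Dcn and Lum had deposited means of 7.71 and 0.414 in Tet1kd cells, against 243 and 18.6 in parental cells. In bulk RNA fewer cells of a type and less RNA per cell cannot be told apart. The part of feeder RNA in the values of the 10 genes was not tested. Of 5 primitive endoderm markers measured, 3 fell in Tet1kd and 2 in Tet2kd cells, and their sums were 209 to 248 in Tet1kd and 182 to 254 in Tet2kd libraries, against 352 to 422 in parental libraries. Of 5 trophectoderm markers 3 fell and 1 rose in Tet1kd cells and 1 fell in Tet2kd cells, with sums of 1059 to 1187 in Tet1kd and 1145 to 1365 in Tet2kd libraries, against 1448 to 1612 in parental libraries. Their part in the values of the 10 genes was not tested either.

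Neighbouring genes were compared as well, in their order in RefSeq (GRCm38.p6) and among genes with a mean of at least 10. The median log2 fold change of the other genes on the chromosomes of the 10 lay between -0.08 and 0.06 in Tet1kd and between -0.11 and 0.03 in Tet2kd cells. Among its 20 nearest such genes, Fosl1 was lower than all 20 in Tet1kd cells, and Spry4, Dusp6 and Etv4 were each lower than 19. Spry1 was higher than 18 of its 20 in Tet1kd and higher than all 20 in Tet2kd cells. Spred1 and Spred2 were less set apart in Tet1kd cells, where 7 and 8 of 20 neighbours were lower than they were.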

How the data were processed

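The submitters' processing notes name TopHat2 (2.0.0), SAMtools (0.1.18) and DESeq and the builds mm9 and NCBIM37, and the role of each is not given in these notes as used here. Each deposited gene table lists, per the file headers, the group means as a signal of normalized counts, their ratio (fold, knockdown over parental) and its log2. Its deposited p-values come from 2 tests, raw and adjusted. The first test is the one used. For each exon bin the deposited exon tables list a mean signal, a log2 ratio of bin use (parental over knockdown, printed as a direction of the knockdown), a p-value and a dispersion score that was not used. The parental share of a bin agreed best between the tables with the header's sign and the ratio doubled (median absolute log2 difference 0.0114, against 0.0547 as deposited, over 3405 bins). Sizes of bin use are therefore not printed.

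Counts of single libraries are not among the columns. They were recovered by lattice reduction, as the one set of 4 whole numbers that, with the size factors of the group, gave the deposited mean and log2 ratio to the last of 15 digits, with each library within 60% of the group mean, or 20% where several sets were found (wider at low counts). Of genes with any read, 21202 of 21658 were solved in Tet1kd, 21052 of 21368 in Tet2kd (means up to 10000) and 21987 of 22004 in parental cells. Parental values from 1 table alone equalled those from both in 21575 of 21576 genes. All 30 sets of the 10 genes were recovered. In 7 of them (Spry2, Spry4 and Etv5 in both knockdowns and Spred1 in Tet1kd) the narrower limit decided. This leans their SDs and limma p-values towards small values and their libraries away from overlap. For Spry2, Spry4 and Etv5 in Tet1kd cells and Spry4 in Tet2kd cells it alone excluded overlap with the parental libraries. For Dusp6 and Etv4 in Tet1kd cells the wider limit of 60% did so.

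Recovered counts were divided by median-of-ratios size factors over 12 libraries and fitted with limma (3.58.1, R 4.3.3) as log2(value + 0.5), over all genes with a mean of at least 10, with a trended prior and Benjamini-Hochberg adjustment. The fit was checked on data simulated with the same dispersion for all genes and no difference between deep and shallow libraries. That check therefore does not cover such a difference or the recovery of the counts. Fold changes by limma differed from the deposited ones by at most 0.04. Deviations of libraries of different groups correlated at 0.373 to 0.592 within the deep or shallow class and at -0.542 to -0.370 across it, so this library batch, taken from the values and not from the labels, was tried as a term. The members, lists and motifs were chosen with earlier results of these data known. Every member is named, and in each list the 2 largest rises and 2 largest falls that passed, apart from some that are not reported here. The labels call the libraries of a group biological replicates and do not say whether they came from separate clones, so p-values measure the spread between these libraries. The number of reads limits the precision of low genes such as Fosl1.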

Additional observations from a re-analysis of the deposited data

Results flagged for a closer look

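Dusp6 and Dusp4 stood out among the 10 because the knockdowns had opposite signs against parental and the direct comparison of the knockdowns passed by limma. Of all genes tested 51.1% passed that comparison, and the share that also had opposite signs is not given here. The log2 difference of Tet1kd from Tet2kd was -1.24 for Dusp6 (adjusted p = 1.22e-10 by limma). All 4 Tet1kd libraries were below all 4 Tet2kd libraries, which the wider limit of the recovery alone ensured. For Dusp4 the log2 difference was -0.80 (adjusted p = 1.44e-07 by limma), again below in all 4 libraries. The rise of Dusp4 in Tet2kd cells passed by limma and not by the deposited test. A single library stood apart within its group: library b of Tet2kd, at 4386 normalized counts of Dusp6, when the other Tet2kd libraries had 4128, 4099 and 4128. Chance sets a library apart in about 1 in 20 groups in this way, and 30 groups of the 10 genes were looked at.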

How the results depend on the processing

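In Tet1kd cells all 10 genes passed under the second deposited test and every limma fit (9 lower, 1 higher), and 9 at an adjusted p under 0.01, where Spred2 was lost. No fold change of the 10 genes changed sign in any comparison under any alternative tried. The Tet2kd count of 4 moved most under 3 alternatives. It was 7 under the second deposited test and 8 by limma with the library batch as a term. It was 1 at an adjusted p under 0.01, where Spry4 alone was left, and 5 by limma without the batch term. The 8 include Spry2 (adjusted p = 0.0453 by limma), whose p-value the recovery leans towards small values. Leaving out 1 library at a time gave 10 to 10 genes for Tet1kd, 5 to 6 for Tet2kd (6 without Tet2kd library b, when Spred1 passed) and 8 to 8 for Tet1kd against Tet2kd. For the comparison between knockdowns the count was 10 with the library batch as a term. The Tet2kd count of the 66 other pathway genes moved as well, being 13 by the first deposited test and 29 by the second. Scaling libraries to the same median shifted the median of all log2 fold changes by -0.0584 in Tet1kd and -0.0249 in Tet2kd cells and changed no limma call of the 10 genes. A pseudocount of 1 and dropping the filter on low values changed none either. The causes were not tested. No paired analysis was possible because the recovered libraries carry no replicate numbers.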

Other observations

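Deep and shallow libraries differed in the same direction in all groups for some of the 10 genes. Spred1 was higher in the deep libraries by 0.20 on the log2 scale in Tet1kd, 0.23 in Tet2kd and 0.20 in parental cells, and Spred2 by 0.16, 0.13 and 0.16. Etv4 was lower in the deep libraries, with log2 differences of -0.11 in Tet1kd, -0.15 in Tet2kd and -0.30 in parental cells. Fosl1 differed by 0.76 in Tet1kd cells and by -0.07 in Tet2kd and -0.06 in parental cells. The labels do not say what the deep and shallow libraries are.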
